A study of Mus musculus with 4 samples.

Results

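The 31 genes described here encode subunits of heterotrimeric G proteins: 15 alpha, 5 beta and 11 gamma genes. They were taken by symbol from a table of 35857 genes. RNA came from glial progenitors formed by neural stem cells of the embryonic mouse cerebral cortex (strain C57BL/6), collected 24 hr after glial differentiation was induced. The tested cells carried the genotype Qk-/- (labelled Qk_KO), a knockout of the gene of Quaking, an RNA-binding protein of the STAR family that regulates splicing, stability and translation of its targets, and the controls were wild type. There were 2 libraries per group, each of poly(A)-selected RNA sequenced on the Ion Proton System. The labels do not say which cells or stage the knockout was made in, or whether libraries of a group came from separate embryos or cultures, so the p-values measure the spread between these libraries.

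A heterotrimeric G protein carries the signal of a G protein-coupled receptor into the cell. The alpha subunit binds GTP when a receptor is active, parts from the beta-gamma dimer, and both act on their own effectors until the alpha subunit has hydrolysed its GTP. Alpha subunits of the Gs family stimulate adenylyl cyclase, those of Gi/o inhibit it, those of Gq/11 activate phospholipase C beta, and those of G12/13 activate a group of guanine nucleotide exchange factors. Neurons are rich in Gnao1, Gng3 and Gnb5 products, whereas Gnas, Gnai2, Gnb1, Gnb2, Gng5, Gng10 and Gng12 are expressed in many tissues.

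Values are TPM, a share of all transcripts corrected for length, so levels of different genes can be compared. The unit keeps no read depth, and the depth behind each value is unknown. Differences were tested with limma on log2(TPM + 1), and a gene was called at a Benjamini-Hochberg adjusted p under 0.05 over the 13260 genes whose mean reached 1 TPM. Qk had 36.1 and 43.7 TPM in the Qk_KO libraries, against 208 and 215 TPM in the controls, and its log2 fold change was -2.38 with an SE of 0.12 (limma, Benjamini-Hochberg adjusted p = 0.00708). In limma with Benjamini-Hochberg adjustment that call was lost when either control library was left out (adjusted p = 0.0554 and 0.0772) or no low genes were filtered (0.108), over a range of 0.00433 to 0.108. Ranges of adjusted p given here leave out the fit with a replicate block, whose values stand with the processing alternatives. The progenitor genes Sox2, Fabp7 and Olig2 were high in every library, at 195 TPM or more. The neural stem cell list, mostly Vim and Fabp7, summed to 6200 and 5990 TPM in Qk_KO and 5850 and 5700 TPM in control. Of its 6 genes tested, 1 rose, Pax6. Of the 7 astrocyte genes tested Aqp4 rose and Slc1a3 fell, with list sums of 503 and 458 TPM in Qk_KO and 548 and 618 TPM in control. Those sums join opposite differences. Slc1a3 stood at 117 and 150 TPM in Qk_KO and 338 and 435 TPM in control. Aldh1l1, not called, stood at 229 and 108 TPM in Qk_KO and 52.0 and 32.9 TPM in control. Of the 7 oligodendrocyte lineage genes tested Pdgfra fell, Mog was at 0 in all libraries, and the list summed to 895 and 1090 TPM in Qk_KO and 1170 and 967 TPM in control. Olig1 and Olig2 made up most of that sum, and the other 6 genes, summed apart after the values were seen, gave 24.9 and 53.2 TPM in Qk_KO and 108 and 158 TPM in control, with a median log2 fold change of -0.74 over the 7 genes tested. The pericyte and fibroblast list, mostly Acta2, summed to 3520 and 1640 TPM in Qk_KO and 1340 and 1170 TPM in control, with 0 of 5 genes called. The microglia and macrophage list (0 of 5 called) summed to 17.6 and 10.4 TPM in Qk_KO and 36.8 and 29.8 TPM in control, and no erythroid or endothelial marker exceeded 4.11 TPM. Of the olfactory neuron list, Omp was at 0.12 TPM or less and Adcy3, which other cells also express, was the 1 gene tested and was not called. The libraries of the Qk_KO group differed: the interneuron genes Dlx1, Dlx2, Dlx5, Dlx6, Gad1 and Gad2 summed to 139 TPM in replicate 1 and 11.3 TPM in replicate 2, against 10.9 and 5.70 TPM in the controls. Dlx1 and Dlx2 made up most of the 139 TPM. Gad1 was at 20.7 and 7.44 TPM in Qk_KO and 4.47 and 2.16 TPM in control. Dlx5 was also higher in both Qk_KO libraries, and 0 of the 4 interneuron genes tested were called. Qk_KO replicate 1 was also the library with Xist at 0.04 TPM and the Y-linked Eif2s3y at 35.4 TPM, while the other 3 libraries had Xist between 57.6 and 62.5 TPM. Of the subunit genes, 0 lie on the X or Y chromosome, but the part of this difference between libraries in their values was not tested.

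Among the subunit genes, the gamma gene Gng12 fell to 33.1% of its control level, the gamma gene Gng3 rose 3.36-fold and the beta gene Gnb5 rose 1.65-fold. Of the 31 genes, 25 passed the filter of 1 TPM and were tested, of which 2 rose, 1 fell and 22 did not pass. These 3 calls were 12% of the members tested, where 3.24% of all genes tested were called, 1.83% higher and 1.42% lower. At an unadjusted p under 0.05 in limma there were 9 of the 25 members tested, against 3760 of the 13260 genes tested, or 28.4%. The groups did not overlap for 15 of the 25, or 60%, against 61.1% over all genes tested. The median log2 fold change of the 25 was 0.0021, against 0.036 over all genes, and 17 of them moved by less than 0.5 log2 units. The share of separated groups and the median were thus close to those of all genes tested.

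**Figure D1:**
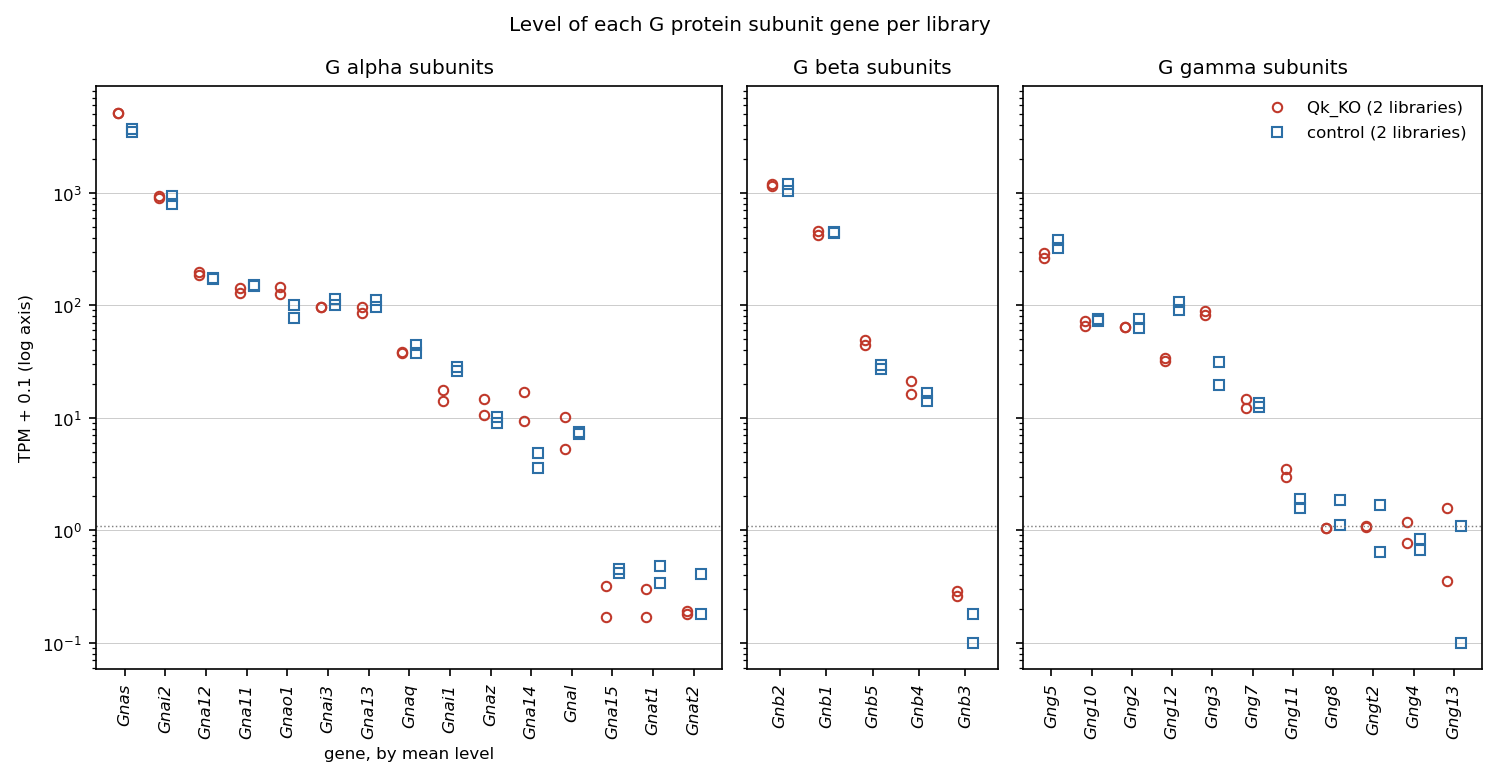
Level of each of the 31 subunit genes per library, as TPM + 0.1 on a log axis, with Qk_KO libraries as circles on the left and control libraries as squares on the right of each gene, and the filter of 1 TPM as a dotted line. Gnas stood highest, at 5111 and 5174 TPM in Qk_KO, and 6 genes lay under the filter.

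**Figure D2:**
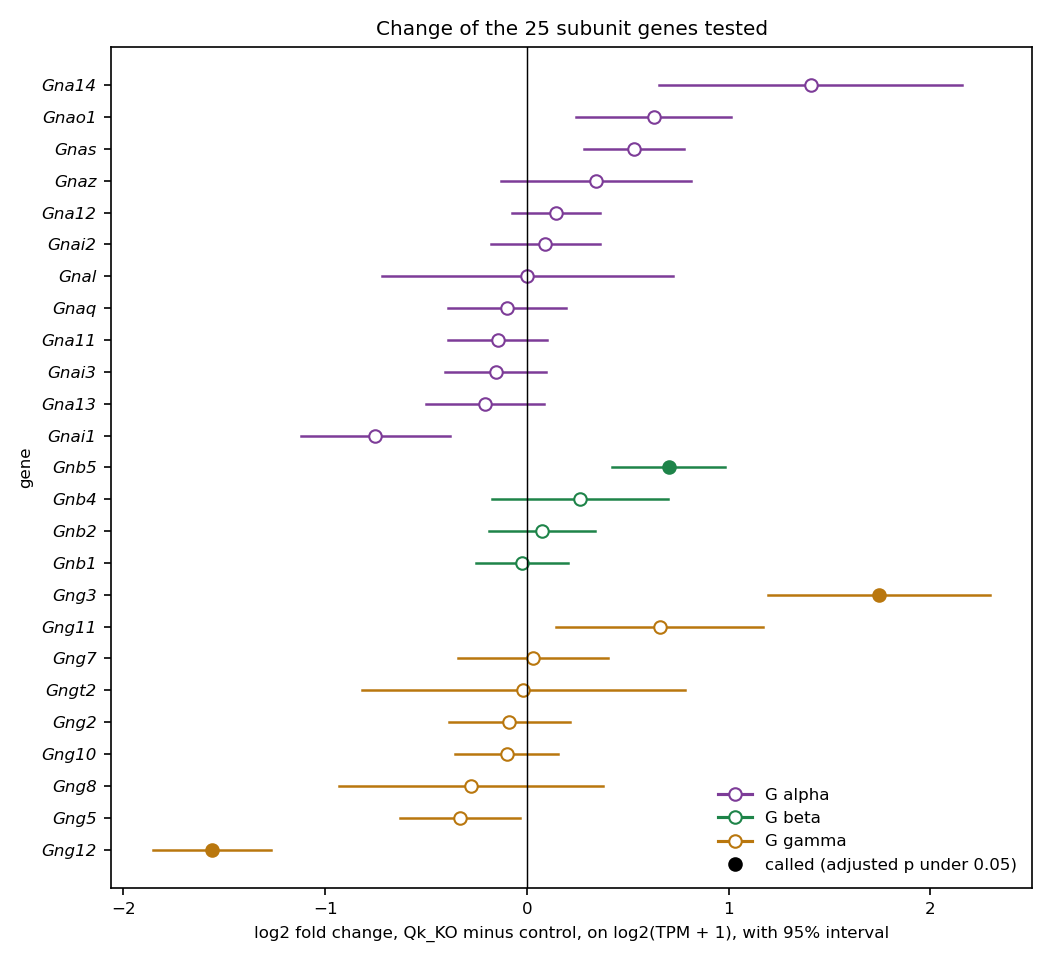
Log2 fold change (Qk_KO minus control) of the 25 genes tested with its 95% interval from limma, by class. The filled points are the called genes Gng12 at -1.56, Gng3 at 1.75 and Gnb5 at 0.70.

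Gng12 encodes a widely expressed gamma subunit known as a substrate of protein kinase C. It stood at 31.9 and 33.6 TPM in the Qk_KO libraries, against 90.9 and 107 TPM in the control libraries. Both Qk_KO values were far below both controls and close to each other. In bulk RNA such as this, fewer cells of a type and less RNA per cell cannot be told apart. The means were 32.7 ± 1.24 TPM in Qk_KO and 98.8 ± 11.2 TPM in control (SD, n = 2 each), and the log2 fold change was -1.56 (SE 0.12, 95% interval -1.85 to -1.27, limma, Benjamini-Hochberg adjusted p = 0.0175). The call was kept without either Qk_KO library (adjusted p = 0.0476 and 0.0371) and lost without control replicate 1 (0.0573) or 2 (0.139) and when low genes stayed in (0.122), over a range of 0.0158 to 0.139 across the 11 alternatives other than the replicate block (limma, Benjamini-Hochberg). In GRCm38 its gene spans bases 66896397 to 67021350 of chromosome 6, plus strand.

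The 3′ UTR of Gng12 is 3761 bases long in its longest annotated form, and it is shown here because Quaking is known to bind the core ACUAAY in RNA. A search of that UTR for ACTAAC or ACTAAT on the transcribed strand found 3 matches. In order they lie at chr6:67018046-67018071, chr6:67019421-67019443 and chr6:67019965-67019990 (GRCm38, plus strand). Capitals mark the core, and in the second also a TAAT downstream; a core followed by TAAC or TAAT after 1 to 20 bases is called bipartite here.
Gng12 first match: atgggcACTAACcaccctgaaacttc
Gng12 second match: ACTAATcttatattcactcTAAT
Gng12 last match: gtctgaACTAACactcccgcgagcac
Of the 25 members tested, 9 had at least 1 core in the longest 3′ UTR, or 36.0%, against 36.3% of the 12013 tested genes that have an annotated 3′ UTR. The bipartite form was found in 4 members, Gng12, Gnaq, Gna13 and Gng2, or 16.0%, against 9.27% of those genes, and the median UTR length was 1884 bases in members and 1443 bases in all. Gnaq, Gna13 and Gng2 were not called. The 3′ UTRs of the genes that rose, Gng3 and Gnb5, held 0 cores in 1210 and 907 bases. A match is a description of the letters and not a binding site.

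Gng3 encodes a gamma subunit that is largely restricted to neurons. It stood at 81.3 and 89.7 TPM in the Qk_KO libraries, against 31.3 and 19.6 TPM in the controls. The groups did not overlap, and the control libraries differed from each other more than the Qk_KO libraries did. The means were 85.5 ± 5.95 TPM in Qk_KO and 25.4 ± 8.29 TPM in control (SD, n = 2 each), a log2 fold change of 1.75 (SE 0.22, 95% interval 1.19 to 2.30, limma, Benjamini-Hochberg adjusted p = 0.0365). Leaving out any 1 library ended the call, with adjusted p of 0.0753 and 0.0724 without Qk_KO replicates 1 and 2, and 0.0554 and 0.142 without control replicates 1 and 2 (limma, Benjamini-Hochberg), and the log2 fold change was between 1.42 and 2.07 over 11 alternatives without the replicate block. The adjusted p was also 0.139 when low genes stayed in and 0.0706 without limma's trend, over a range of 0.0268 to 0.142 with no replicate block in limma with Benjamini-Hochberg adjustment.

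Gng3 spans bases 8836933 to 8839194 of chromosome 19 (GRCm38, minus strand) and shares 398 exon bases, 24.2% of its own, with Bscl2 on the plus strand, the gene of the lipid droplet protein seipin. The strand setting of the counting is not given in the sources used here, so reads of the shared part cannot be told apart. Bscl2 itself stood at 82.3 and 94.9 TPM in Qk_KO and 68.1 and 69.3 TPM in control, with a log2 fold change of 0.36 that was not called (limma, Benjamini-Hochberg adjusted p = 0.108). Of the neuron list, 1 of the 7 genes tested rose, the synaptic SNARE gene Snap25, at 31.6 and 37.5 TPM in Qk_KO and 18.2 and 12.8 TPM in control, 0 fell and 6 did not pass. The list summed to 710 and 622 TPM in Qk_KO and 481 and 306 TPM in control, and none of its 9 markers was at 0 in all libraries. Tubb3 carried the difference in that sum, with 512 and 383 TPM in Qk_KO and 275 and 126 TPM in control. Without Tubb3, a sum chosen after the values were seen, the other 8 markers gave 198 and 239 TPM in Qk_KO and 206 and 180 TPM in control, which overlap. Map2 made up most of that sum, with 133 and 149 TPM in Qk_KO and 143 and 135 TPM in control. Rbfox3, not called, was higher in both Qk_KO libraries, at 4.13 and 7.49 TPM against 3.90 and 3.33 TPM in control. Dcx and Syt1 had higher means in Qk_KO, with overlapping groups. Stmn2, Slc17a6 and Slc17a7 had lower means in Qk_KO than in control, with overlapping groups. The median log2 fold change over the 7 neuron genes tested was 0.36. The part of these markers in the values of Gng3 was not tested.

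The stretch around the start of Gng3 is shown beside that of Gnb5, the other gene that rose, because their promoter windows (250 bases before to 50 after the start, RefSeq, GRCm38.p6) share a run of 14 bases, GCAGGTAGTGAGAG, found by comparing the windows after the calls were known. Capitals mark the shared run, which begins 90 bases before the RefSeq start of Gng3 and 86 bases before that of Gnb5. The whole promoter window of Gng3, 8839197 to 8839496, lies outside the gene span given above. The RefSeq start of Gng3 thus differs from the start of that span. The windows are chr19:8839283-8839376 on the minus strand and chr9:75306162-75306255 on the plus strand.
Gng3: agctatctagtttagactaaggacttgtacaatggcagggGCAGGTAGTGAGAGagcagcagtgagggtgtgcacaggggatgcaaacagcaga
Gnb5: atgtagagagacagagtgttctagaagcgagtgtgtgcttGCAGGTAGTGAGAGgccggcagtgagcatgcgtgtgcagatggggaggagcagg
From the first base of the run, 23 of 26 bases are the same in both. The first 14 of these are the run itself, and the length of 26 was picked as the longest with high identity. Over all 32851 promoter windows of the RefSeq table, the run was found on either strand in 3, those of Gng3, Gnb5 and Bscl2, whose window overlaps that of Gng3, or 0.0091%. The run was picked as the longest that the windows of Gng3 and Gnb5 share. How long a run other pairs of windows share was not computed, so its rarity does not show that this pair is unusual. The promoters of Gng3 and Gnb5 also held few CpG dinucleotides, 2 in Gng3 and 5 in Gnb5, while the windows of Gng12 held 34 and 35. Of the 19 tested members with a promoter in the table, 3 had at most 5 CpG, namely Gng3, Gnb5 and Gng2, and the median was 27, against a median of 21 and 7.35% with at most 5 CpG over the 10411 tested genes with a promoter. The limit of 5 equals the count of Gnb5, so Gng3 and Gnb5 fall within it by the choice of limit.

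The other 7 gamma genes tested were not called. Gng5, the most abundant of them, is widely expressed, and stood at 294 and 265 TPM in Qk_KO, against 323 and 381 TPM in control. The groups did not overlap, but the log2 fold change of -0.33 (95% interval -0.63 to -0.03) was not called (limma, Benjamini-Hochberg adjusted p = 0.145). Gng10 was at 65.2 and 72.3 TPM in Qk_KO and 71.9 and 75.4 TPM in control. In GENCODE M21, 72.0% of its exon bases are shared with the same-strand transcript Gm20503, which has no value of its own among the deposited genes. Which of these transcripts the reads of Gng10 came from was not tested. Gng2, which is abundant in brain, was at 64.2 and 64.5 TPM in Qk_KO and 75 and 62.3 TPM in control, with an interval of -0.39 to 0.21 for its log2 fold change. Groups of Gng10 and Gng2 overlapped. Gng11, one of the few gamma subunits that carry a farnesyl rather than a geranylgeranyl anchor, was low, at 3.42 and 2.90 TPM in Qk_KO and 1.48 and 1.79 TPM in control. Its values did not overlap, and its log2 fold change of 0.66 had an adjusted p of 0.115 (limma, Benjamini-Hochberg).

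Gng7, which pairs with the olfactory alpha subunit in the striatum, stood at 13.4 ± 1.81 TPM in Qk_KO and 13 ± 0.771 TPM in control (SD, n = 2 each), with a 95% interval of -0.34 to 0.40 for the log2 fold change. Gng8 and the cone photoreceptor gamma subunit gene Gngt2 passed the filter narrowly, with means over the libraries of 1.17 and 1.02 TPM, and their log2 fold changes were -0.28 and -0.02. Gng4 and Gng13, a gamma subunit of taste and olfactory cells, lay under the filter, and the values of Gng13, 0.25 and 1.46 TPM in Qk_KO and 0 and 0.98 TPM in control, overlapped between the groups.

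Of the 4 beta genes tested, Gnb5 rose and the other 3 were not called. Gnb5 encodes the most divergent beta subunit, which forms stable dimers with RGS proteins of the R7 group in place of a gamma subunit. It stood at 44.3 and 48.7 TPM in the Qk_KO libraries and 29.3 and 27.0 TPM in the controls, with no overlap. The means were 46.5 ± 3.14 TPM in Qk_KO and 28.1 ± 1.69 TPM in control (SD, n = 2 each), a log2 fold change of 0.70 (SE 0.11, 95% interval 0.42 to 0.98, limma, Benjamini-Hochberg adjusted p = 0.0445). The call was near the threshold: it was lost when Qk_KO replicate 1 (adjusted p = 0.0918) or 2 (0.0972) or control replicate 1 (0.108) or 2 (0.271) was left out, when low genes stayed in (0.139) and without limma's trend (0.0805), in limma with Benjamini-Hochberg adjustment over a range of 0.0371 to 0.271 with no replicate block. Gnb5 spans bases 75306288 to 75345876 of chromosome 9 (GRCm38, plus strand), and 7.96% of its exon bases are shared with the antisense gene Gm19531. Snap25, Tubb3 and Rbfox3 of the neuron list were also higher in both Qk_KO libraries. Map2, Dcx and Syt1 overlapped between the groups, and Stmn2, Slc17a6 and Slc17a7 had lower means in Qk_KO. The list without Tubb3, mostly Map2, overlapped as well, and the part of the neuron markers in the values of Gnb5 was not tested.

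The R7 partners of Gnb5 were looked up after its value was seen. Rgs7 stood at 44.5 and 38.2 TPM in Qk_KO and 28.9 and 28.7 TPM in control, with a log2 fold change of 0.50 (limma, Benjamini-Hochberg adjusted p = 0.0708). Rgs6 stood at 8.17 and 3.25 TPM in Qk_KO and 1.2 and 0.64 TPM in control, with a log2 fold change of 1.72 (limma, Benjamini-Hochberg adjusted p = 0.0703). Rgs9 was at 49.0 and 48.9 TPM in Qk_KO and 47.7 and 27.8 TPM in control, and Rgs11 lay under 1 TPM in every library. The groups were apart for Rgs6, Rgs7 and Rgs9, as for 61.1% of all genes tested, and none of them was called. Rgs7bp, which anchors these dimers to the membrane, was at 8.49 and 11.2 TPM in Qk_KO and 9.04 and 9.33 TPM in control.

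Gnb2 and Gnb1, the most abundant beta genes, were not called, and their groups overlapped. Gnb2 was at 1197 and 1160 TPM in Qk_KO and 1197 and 1046 TPM in control, with a 95% interval of -0.19 to 0.34 for the log2 fold change. Gnb1 was at 420 and 458 TPM in Qk_KO and 449 and 443 TPM in control, with an interval of -0.25 to 0.21. The miRNA gene Mir6418 lies inside Gnb2 on the same strand, at 137529480 to 137529594 on chromosome 5, and shares 30 exon bases with it. It was listed at 19.5 and 11.4 TPM in Qk_KO and at 0 in both controls while Gnb2 was not called, and how the counting split reads between them was not tested. Gnb4 was at 18.6 ± 3.51 TPM in Qk_KO and 15.3 ± 1.85 TPM in control (SD, n = 2 each), and Gnb3, a beta subunit of cones, was at 0.19 TPM or less.

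Of the 12 alpha genes tested, 0 were called, and 4 had an unadjusted p under 0.05 in limma, where 28.4% of all genes tested did. Gnas, which encodes the stimulatory alpha subunit and, from other first exons of its imprinted locus, further products that a value per gene adds up, was the most abundant member. It stood at 5111 and 5174 TPM in Qk_KO, against 3654 and 3465 TPM in control. The Qk_KO libraries were close to each other and above both controls, with means of 5142 ± 44.4 TPM in Qk_KO and 3559 ± 133 TPM in control (SD, n = 2 each). Its log2 fold change of 0.53 (SE 0.10, 95% interval 0.28 to 0.78) missed the threshold at an adjusted p of 0.0527 (limma, Benjamini-Hochberg), and, among the alternatives with no replicate block, it passed when the filter was raised to 5 TPM (0.0395), with small RNA genes left out (0.0444) and with a pseudocount of 0.1 (0.048), over a range of 0.0395 to 0.365. Gnas on chromosome 2 shares 13.1% of its exon bases with Gm20721 on the other strand and 8.83% with the antisense RNA Nespas, which stood at 1.12 ± 0.608 TPM in Qk_KO and 1.17 ± 0.0564 TPM in control. Gnal, the alpha subunit of olfactory neurons and striatum, was at 5.15 and 9.99 TPM in Qk_KO and 7.30 and 7.12 TPM in control, with the controls inside the Qk_KO range.

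Of the Gi/o family, 0 members were called. Gnai1, which inhibits adenylyl cyclase, stood at 13.9 and 17.6 TPM in Qk_KO, against 26.2 and 27.9 TPM in control. Both Qk_KO values were below both controls, and the log2 fold change was -0.75 (95% interval -1.12 to -0.38, limma, Benjamini-Hochberg adjusted p = 0.0548). Among the alternatives with no replicate block, Gnai1 passed by the same method when the filter was raised to 5 TPM (0.0466) and with small RNA genes left out (0.0453), over a range of 0.0453 to 0.313.

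Gnao1, the alpha subunit most abundant in brain, stood at 146 and 126 TPM in Qk_KO, against 99.6 and 76.8 TPM in control. The log2 fold change was 0.63 (95% interval 0.24 to 1.01, limma, Benjamini-Hochberg adjusted p = 0.0758), with no overlap. The part of the neuron markers in these values was not tested either. Gnao1 was 10.5 and 7.16 times as abundant as Gnai1 in the Qk_KO libraries, and 3.8 and 2.75 times in the controls.

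Gnai2, the main inhibitory subunit here, was at 942 and 896 TPM in Qk_KO and 928 and 800 TPM in control, with an interval of -0.18 to 0.36 for its log2 fold change. Gnai3 was at 95.6 ± 0.18 TPM in Qk_KO and 107 ± 8.72 TPM in control, and Gnaz, which pertussis toxin does not modify, at 12.5 ± 2.84 TPM in Qk_KO and 9.54 ± 0.834 TPM in control (SD, n = 2 each). Neither passed the test. The transducin genes Gnat1 and Gnat2 of rods and cones lay at 0.38 TPM or less in every library, where the photoreceptor markers Pde6b and Cnga1 were listed at 0.

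In the Gq/11 family, Gna14 had a larger fold change than its relatives but was not called. It was at 16.7 and 9.19 TPM in Qk_KO, against 4.77 and 3.45 TPM in control. All Qk_KO values were above all controls, but the Qk_KO libraries differed from each other, with a mean of 13 ± 5.35 TPM in Qk_KO and 4.11 ± 0.933 TPM in control (SD, n = 2 each). The log2 fold change was 1.41 (SE 0.30, 95% interval 0.66 to 2.16, limma, Benjamini-Hochberg adjusted p = 0.0622), and among the alternatives with no replicate block it passed with small RNA genes left out (0.0499), over a range of 0.0499 to 0.329. Its highest value was in Qk_KO replicate 1, the library in which the interneuron list summed to 139 TPM. Without that library the log2 fold change of Gna14 was 1.01.

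Gnaq, whose gene ends 48.3 kb before Gna14 on chromosome 19, was at 37.8 and 38.5 TPM in Qk_KO and 37.9 and 44.1 TPM in control, with an interval of -0.39 to 0.20 for its log2 fold change. The intervals of these neighbours do not overlap, and their difference was not tested. Gna11 was at 135 ± 10.9 TPM in Qk_KO and 149 ± 1.73 TPM in control (SD, n = 2 each), and Gna15, a subunit of blood cells that lies 4.5 kb from Gna11 on chromosome 10, was under the filter at 0.35 TPM or less.

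The G12/13 family was nearly level in sum. Groups did not overlap for Gna12, which was higher in Qk_KO, or Gna13, which was lower, as for 61.1% of all genes tested. Gna12 was at 185 and 196 TPM in Qk_KO and 174 and 171 TPM in control, with an interval of -0.07 to 0.36 for the log2 fold change, and it shares 13.3% of its exon bases with Amz1 on the other strand. Gna13 was at 90.01 ± 7.62 TPM in Qk_KO and 104 ± 10.1 TPM in control (SD, n = 2 each). Neither was called.

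The shares within a class do not depend on how a library is scaled. Within the gamma class, Gng12 made up 5.95 ± 0.285% of the summed TPM in Qk_KO and 15.5 ± 0.774% in control, and Gng3 made up 15.5 ± 1.24% in Qk_KO and 4.04 ± 1.56% in control (SD, n = 2 each). Gng3 was thus 2.55 and 2.67 times as abundant as Gng12 in the Qk_KO libraries, against 0.344 and 0.183 times in the controls. Gng5 held about the same place, with 50.7 ± 3.23% in Qk_KO and 55.2 ± 2.97% in control. Within the beta class Gnb5 made up 2.76 ± 0.174% in Qk_KO and 1.75 ± 0.0159% in control, while Gnb2 made up 70.0 ± 1.86% in Qk_KO and 69.6 ± 1.85% in control.

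Within the alpha class Gnas made up 75.7 ± 0.347% in Qk_KO and 69.3 ± 0.339% in control (SD, n = 2 each), and Gnai2 13.5 ± 0.536% in Qk_KO and 16.8 ± 1.05% in control. The summed alpha genes stood at 6777 and 6816 TPM in Qk_KO and 5288 and 4981 TPM in control, a ratio of 1.32 between the means, with Gnas contributing most of the difference. For the other alpha families the ratio of Qk_KO to control was 1.08 for Gi/o, 0.958 for Gq/11 and 1.02 for G12/13. Summed beta genes were at 1677 and 1688 TPM in Qk_KO and 1689 and 1532 TPM in control, and summed gamma genes at 555 and 547 TPM in Qk_KO and 608 and 665 TPM in control. The ratio of gamma to beta transcripts was 0.331 and 0.324 in Qk_KO, against 0.360 and 0.434 in control. These sums are descriptions with no test, since with 2 libraries a side no arrangement of them has a share under 33.3% in an exact permutation test.

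**Figure D3:**
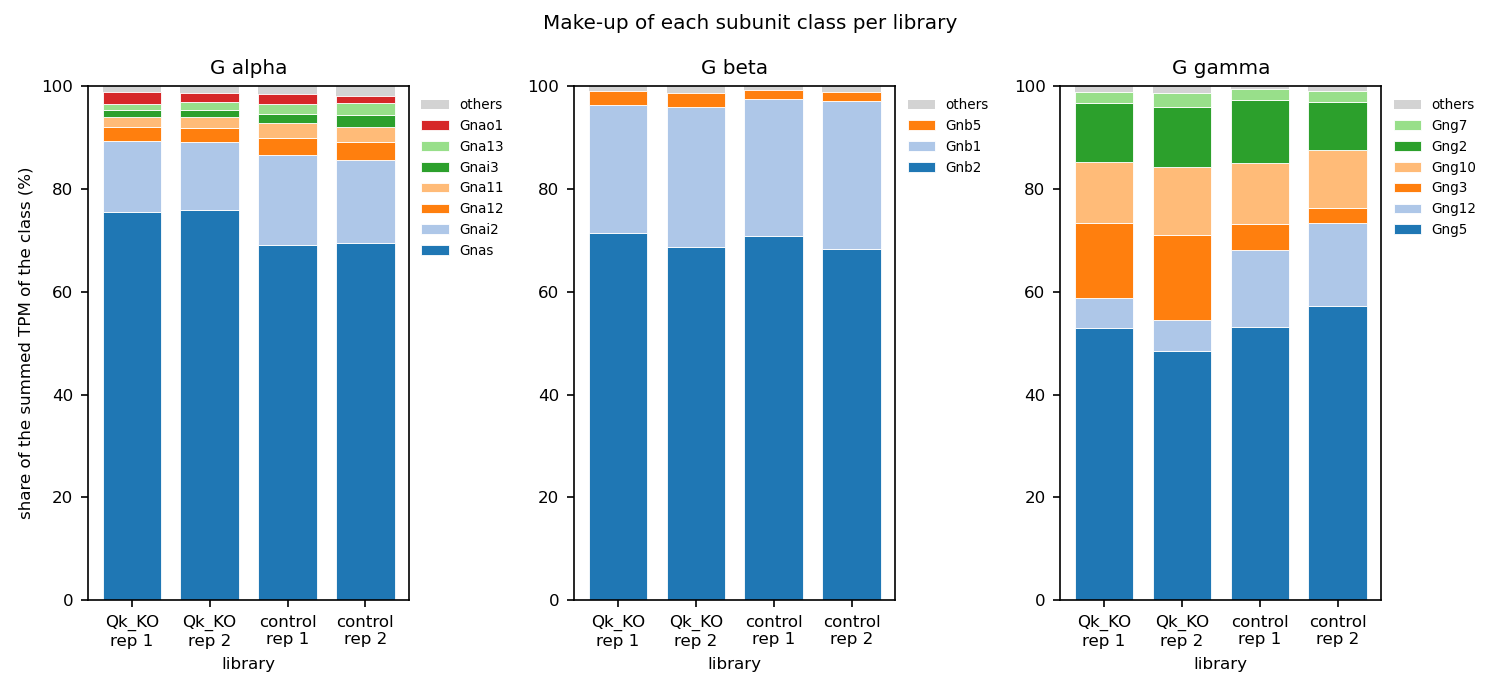
Share of each gene in the summed TPM of its class, in percent, for the 2 Qk_KO libraries (left) and the 2 control libraries (right), with genes under 1.5% in both groups pooled as others. In the gamma class the segment of Gng3 takes 15.5% in Qk_KO and 4.04% in control, and that of Gng12 takes 5.95% in Qk_KO and 15.5% in control.

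Genes that act before and after the G proteins were read from 10 lists with 109 genes tested, of which 6 rose, 5 fell and 98 did not pass, or 10.1% called where 3.24% of all genes tested were called. All of these lists were read from the fit over all genes, and the 11 calls had limma adjusted p between 0.021 and 0.0495 (Benjamini-Hochberg). The lists were chosen with earlier results of these data known. The share of 10.1% is thus a description and not a test of the lists. Of the 33 receptor genes tested, 2 rose and 3 fell. The protease receptor gene F2rl1 stood at 11.5 and 11.8 TPM in Qk_KO, against 30.6 and 29.5 TPM in control, and the endothelin receptor gene Ednrb at 191 and 175 TPM in Qk_KO, against 450 and 381 TPM in control. The GABA-B receptor subunit gene Gabbr2 stood at 15.1 and 19.6 TPM in Qk_KO, against 6.05 and 5.69 TPM in control, and the chemokine receptor gene Cxcr4 at 41.7 and 29.3 TPM in Qk_KO, against 14.6 and 15.4 TPM in control. The fifth called receptor, F2r, outside the naming rule and added after its values were seen, stood at 140 and 113 TPM in Qk_KO, against 209 and 220.3 TPM in control.

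Among regulators, Rgs16, which speeds GTP hydrolysis by Gi and Gq subunits, was the 1 gene of 13 RGS genes tested that passed, and it fell to 44.8 and 37.4 TPM in Qk_KO, against 93.8 and 79.6 TPM in control. Of the chaperones and modulators, 2 of 15 rose and 0 fell. Nucb2, which encodes a calcium-binding protein, stood at 38.9 and 31.8 TPM in Qk_KO, against 10.1 and 8.62 TPM in control, and Ccdc88c, an activator of Gi subunits that acts without a receptor, at 52.8 and 49.3 TPM in Qk_KO, against 32.7 and 34.4 TPM in control. Of the receptor kinases and arrestins 0 of 7 were called, with the kinase genes Grk6 at 135 ± 12.8 TPM in Qk_KO and 121 ± 6.24 TPM in control and Adrbk1 (Grk2) at 113 ± 6.71 TPM in Qk_KO and 127 ± 2.60 TPM in control (SD, n = 2 each).

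Among effectors, Plcb4, a phospholipase C beta of the Gq pathway, rose to 28.6 and 25.3 TPM in Qk_KO, against 7.68 and 8.46 TPM in control. It was the 1 called gene of 3 phospholipases tested, and Plcb1 and Plcb3 lay the other way, with log2 fold changes of -0.80 and -0.64 that were not called. Cacna1a, the P/Q calcium channel that beta-gamma dimers inhibit, was the 1 called gene of 6 beta-gamma effectors, at 14.2 and 16.1 TPM in Qk_KO and 7.84 and 7.38 TPM in control. Pde1a, a phosphodiesterase that degrades cyclic nucleotides, was the 1 called gene of 12 phosphodiesterases, at 5.09 and 5.23 TPM in Qk_KO and 16.1 and 19.3 TPM in control.

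Of 7 adenylyl cyclases tested 0 were called, and the most abundant were Adcy1 at 66.7 ± 1.52 TPM in Qk_KO and 52.3 ± 4.37 TPM in control and Adcy6 at 30.4 ± 1.44 TPM in Qk_KO and 25.3 ± 2.04 TPM in control (SD, n = 2 each). Of 9 cAMP effectors 0 were called, with Prkar1a at 238 ± 12.7 TPM in Qk_KO and 274 ± 6.18 TPM in control and Prkaca at 194 ± 3.56 TPM in Qk_KO and 176 ± 8.46 TPM in control. Of 4 RhoGEF genes that G12 and G13 activate 0 were called, with Arhgef1 at 68.5 ± 4.86 TPM in Qk_KO and 54.4 ± 11.4 TPM in control and Arhgef12 at 53.6 ± 1.78 TPM in Qk_KO and 48.7 ± 4.71 TPM in control.

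**Figure D4:**
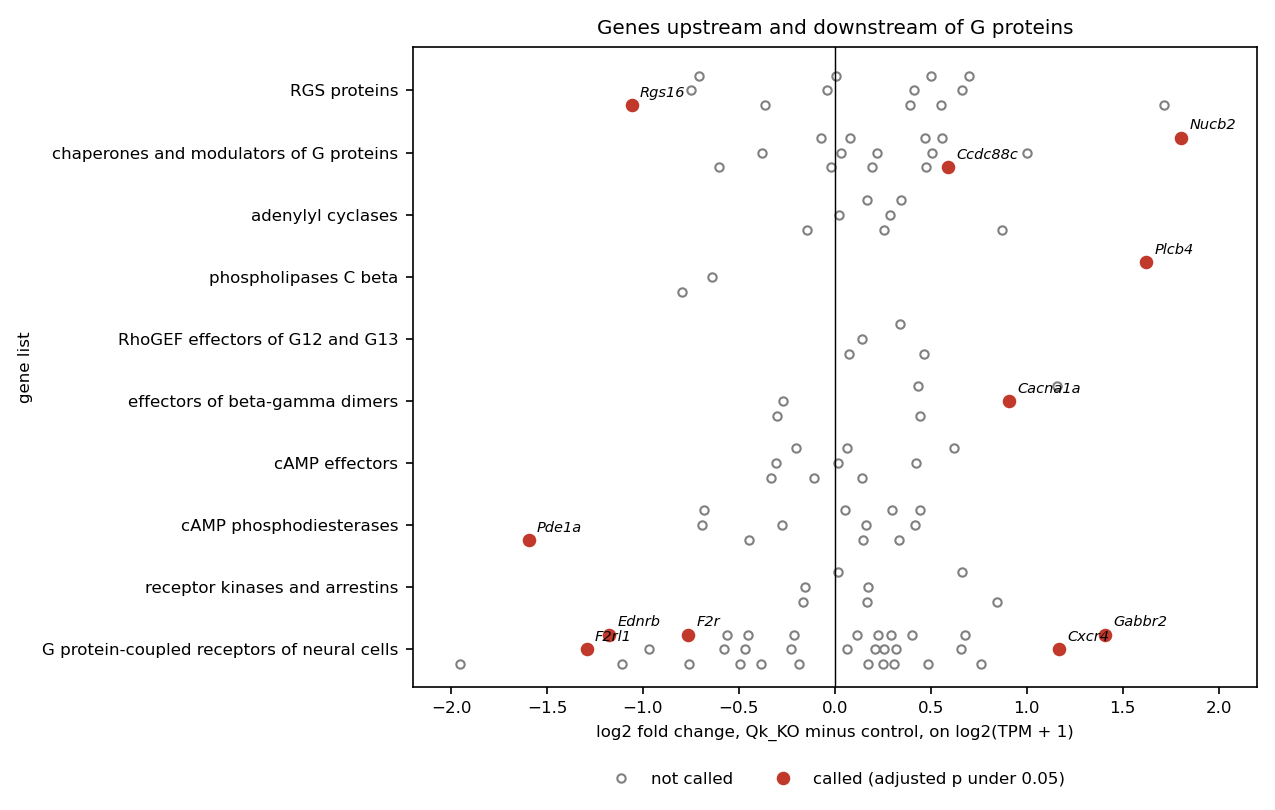
Log2 fold change (Qk_KO minus control) of every tested gene of the 10 lists, on the log2(TPM + 1) scale, with called genes filled and named. Calls lie on both sides of 0, with Nucb2 at 1.81 and Plcb4 at 1.62 highest and Pde1a at -1.60 lowest of the called genes.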

How the data were processed

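The authors deposited TPM per gene, 1 table per library. The submitters' processing notes list STAR 2.4.1d, RSEM 1.3.0 and the builds mm10 and GRCm38.p4. No source used here gives the annotation, strand setting or depth. As a share of a total, a TPM falls when abundant genes rise.

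All 4 libraries entered 1 fit of log2(TPM + 1), a pseudocount of 1 that understates changes of low genes, for the 13260 genes whose mean reached 1 TPM, with limma 3.58.1 in R 4.3.3 (trend, two-sided, Benjamini-Hochberg over all genes tested, 5.57 degrees of freedom). The fit was also run on simulated data with independent noise of the size that the same fit had estimated. It recovered 44 of 50 changes of 1 log2 unit, with 20 false calls over all simulated sizes. Such data cannot show whether the spread between these libraries was estimated well. The members, lists and tests were chosen with earlier results of these data known. Values per library are given for called members, the 3 most abundant of each class and members that moved by 0.5 log2 units or more without overlap. From each pathway list up to 4 called genes were named, or the 2 most abundant where none was called. Marker lists were neuron, interneuron, astrocyte, oligodendrocyte lineage, neural stem cell, microglia and macrophage, endothelial, pericyte and fibroblast, erythroid, photoreceptor and olfactory neuron. Coordinates and 3′ UTRs came from GENCODE M21 (GRCm38), promoters from RefSeq (GRCm38.p6), which held 23 of 31 members. Of the members, 13 share exon bases with another gene. Alternatives were pseudocounts of 0.1 and 0.5, no filter or one of 5 TPM, median-ratio scaling, small RNA genes left out, no trend, the replicate number as a block and each library left out. Figures were drawn with matplotlib 3.10.9.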

Additional observations from a re-analysis of the deposited data

How the results depend on the processing

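With 2 libraries a side, calls depended on the settings more than directions did. Of all genes tested, 430 were called, against 0 with no filter on low values (limma, 4327 at an unadjusted p under 0.05), 649 at a filter of 5 TPM, 792 with small RNA genes left out, 41 without limma's trend, and 4 to 148 when a library was left out. The subunit genes called numbered 3, against 0 with no filter (10 at an unadjusted p under 0.05), 5 at a filter of 5 TPM, 6 with small RNA genes left out, 1 without the trend, and 0 to 1 when a library was left out. Pathway genes called numbered 11, against 0 with no filter, 4 without the trend, and 0 to 5 when a library was left out. The Qk log2 fold change was -2.38 with no filter, where it was not called, and -2.52 to -2.25 when a library was left out. Fewer samples and other numbers of genes tested are part of these alternatives, and other causes were not tested. Median-ratio scaling gave 453 calls, 3 of them subunit genes, and moved the median of all genes to 0.0057.

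Over the 15 named subunit genes, 150 of 179 alternative values kept direction and side of the threshold, 15 lost the call, 10 gained one and 4 changed sign. Those 4 were small changes with a library left out: Gnai2 ranged from -0.0141 to 0.199, Gnb1 from -0.0863 to 0.0392, Gnb2 from -0.0231 to 0.172 and Gng2 from -0.218 to 0.0449. The labels do not say that a replicate number marks a shared origin, and deviations of same-numbered libraries correlated at r = 0.114 over 13260 genes, from 2 pairs. A fit with the replicate block called 1278 genes, 24 pathway genes and 7 subunit genes. Its limma adjusted p (Benjamini-Hochberg) was 0.0233 for Gna14, 0.034 for Gnai1, 0.0327 for Gnao1, 0.0321 for Gnas, 0.035 for Gnb5, 0.0092 for Gng12 and 0.0205 for Gng3. Depth is unknown, so genes near 1 TPM such as Gng8 and Gngt2 have no stated counting error.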
